A study of Mus musculus with 8 samples.

Results

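The heat shock and oxidative stress genes described here are 10 mouse genes, of 18193 with a probe set of their own, measured by 21 of the 45101 probe sets on the array. The members were listed by name and every probe set annotated to them was taken. Heat shock genes make up 8 of the probe sets (Hspa1a, Hspa1b, Dnajb1 and Hsph1), and targets of the transcription factor Nrf2 make up 13 (Nqo1, Srxn1, Hmox1, Gclm, Gclc and Txnrd1). No measured value served as a filter, but the list was drawn up with earlier results of these data known. All 21 probe sets carry a single gene symbol, and none was removed for low signal.

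Expression was measured on 8 Affymetrix arrays of mouse pre-iPSCs, cells that set out towards pluripotency during reprogramming and stopped short of it. All cells were kept in embryonic stem cell medium and received siRNA for 3 days before total RNA was taken. Control arrays (n = 3) come from cells given siRNA against luciferase, a gene that mouse cells lack. In the 3XHMT group (n = 2), Ehmt1, Ehmt2 and Setdb1, which encode methyltransferases acting on lysine 9 of histone H3, were targeted together. In the Cbx3 group (n = 3) the siRNA was against Cbx3, the gene of HP1 gamma, a protein that binds methylated lysine 9. Arrays of a group are labelled as biological replicates with no word on what was repeated, so p-values measure the spread between these arrays, which may be technical. The design addresses how expression in pre-iPSCs differs when the writers or a reader of this histone mark are depleted.

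The heat shock response is driven by the transcription factor Hsf1, which binds inverted repeats of GAA in front of chaperone genes when unfolded proteins accumulate. Its best known products are the inducible Hsp70 proteins of Hspa1a and Hspa1b, their partner Dnajb1 of the Hsp40 family, and Hsph1, a member of the Hsp110 family that exchanges nucleotide on Hsp70. Nrf2, encoded by Nfe2l2, is held down by Keap1 until oxidants or electrophiles modify Keap1, and it then binds antioxidant response elements of genes for glutathione and thioredoxin metabolism and for heme breakdown.

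Promoter windows of 300 bases, from 250 before to 50 after the annotated start, are shown for Hspa1a, Hspa1b, Hsph1 and Srxn1, the members with a window that holds the heat shock element, its inner pair or the extended antioxidant response element, since these are the sequences through which the 2 pathways are known to act. They are RefSeq sequences of assembly GRCm38.p6 and cover 8 of the 10 members in 12 windows. Windows of Hmox1 and Gclc are not shown. The windows printed lie at chr17:34972107-34972406 on the minus strand for Hspa1a, chr17:34959189-34959488 on the minus strand for Hspa1b, chr5:149636287-149636586 on the minus strand for Hsph1 and chr2:152105274-152105573 on the plus strand for Srxn1. Each reads 5′ to 3′, and capitals mark the heat shock element or pair in the first 3 and the extended antioxidant response element in Srxn1.
Hspa1a: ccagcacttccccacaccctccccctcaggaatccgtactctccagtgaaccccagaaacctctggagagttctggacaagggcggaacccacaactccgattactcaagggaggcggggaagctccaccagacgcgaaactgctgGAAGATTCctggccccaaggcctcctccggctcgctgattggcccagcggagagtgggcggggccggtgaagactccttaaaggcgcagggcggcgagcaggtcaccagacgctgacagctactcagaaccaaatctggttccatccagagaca
Hspa1b: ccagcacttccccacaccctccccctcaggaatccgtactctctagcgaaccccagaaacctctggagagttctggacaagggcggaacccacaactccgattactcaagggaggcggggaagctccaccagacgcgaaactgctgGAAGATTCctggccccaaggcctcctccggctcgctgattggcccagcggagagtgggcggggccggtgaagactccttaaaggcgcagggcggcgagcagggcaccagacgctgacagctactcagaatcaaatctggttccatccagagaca
Hsph1: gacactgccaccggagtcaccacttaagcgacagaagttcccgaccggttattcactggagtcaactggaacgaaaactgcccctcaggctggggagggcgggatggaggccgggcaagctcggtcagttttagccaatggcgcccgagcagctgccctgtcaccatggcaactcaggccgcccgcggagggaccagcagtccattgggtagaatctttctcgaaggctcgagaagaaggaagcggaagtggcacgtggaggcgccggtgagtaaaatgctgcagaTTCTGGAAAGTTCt
Srxn1: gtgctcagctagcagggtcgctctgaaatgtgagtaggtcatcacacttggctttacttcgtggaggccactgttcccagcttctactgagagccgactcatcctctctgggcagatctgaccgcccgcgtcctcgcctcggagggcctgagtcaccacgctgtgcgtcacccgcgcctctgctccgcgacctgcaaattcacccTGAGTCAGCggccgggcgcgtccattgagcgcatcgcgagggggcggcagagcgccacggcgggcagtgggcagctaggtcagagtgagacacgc

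The windows were searched on both strands for the heat shock element of 3 alternating repeats of GAA, its inner pair (GAANNTTC), the antioxidant response element core (TGANNNNGC) and an extended form with an AP-1 core (TGANTCAGC), which is itself a case of the core. Among 32851 windows of 300 bases, 0.603%, 7.86%, 41.3% and 1.19% held these motifs. Hspa1a and Hspa1b both held the pair, as GAAGATTC between bases -104 and -97 from the start. The element of 3 repeats stood in Hsph1, as TTCTGGAAAGTTC between bases +37 and +49 from the start whose window is printed, and between bases +16 and +28 from the start of its other window. Both of these starts lie inside the annotated gene, whose 5′ end is at base 149636498 of chromosome 5. Srxn1 held the extended antioxidant element, as TGAGTCAGC between bases -45 and -37, and other core matches besides. Windows of Dnajb1 held no heat shock motif and that of Nqo1 no antioxidant motif, while Gclm and 2 of the 3 Txnrd1 windows held core matches only. Core matches, the most frequent of the 4 motifs over all windows, also stood in Hsph1 and Dnajb1. A match here is a match of letters and says nothing of binding. Nor does the lack of a match mean that a gene lacks the element, since sequence outside the windows and inexact matches were not searched.

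Hspa1a and Hspa1b lie 10120 bases apart on chromosome 17, and their windows share 296 of 300 bases. The differences, with the Hspa1a base first and positions counted from the 5′ end of the window, were C44T, T47C, T249G and C276T. The genes are near-identical copies and their transcripts can hybridise to each other's probes, so signal annotated to one may come from the other.

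Facts of the whole series that touch these genes are few. Array medians were 5.87 to 5.90 on the log2 scale. The signal of the middle probe set for 18S ribosomal RNA divided the arrays into 3 tiers that cut across the groups: high in control 2, 3XHMT 1 and Cbx3 2 (12.6 to 12.8), middle in control 1 and Cbx3 1 (11.2 and 11.5) and low in control 3, 3XHMT 2 and Cbx3 3 (9.98 to 10.2). Deviations from group means had correlations of 0.51 to 0.74 where arrays shared a tier across groups (7 pairs) and of -0.66 to 0.22 where they did not (14 pairs). These pairs are not separate evidence. Arrays 3XHMT 1 and 3XHMT 2, the only ones of their group, deviate as mirror images (correlation of -1), so each of their values recurs with its sign turned. Deviations within a group cancel out, so positive values within tiers push those across tiers down. What the tier reflects was not tested, and tests are therefore given without and with the tier as a block. In Cbx3 arrays the 3 bright Cbx3 probe sets, which are also annotated to a Cbx3 pseudogene, stood at 37.9% to 43.9% of control. In 3XHMT arrays the brightest probe sets of Setdb1, Ehmt2 and Ehmt1 stood at 63.2%, 66.8% and 79.6% of control, and none of these passed (adjusted p of 0.556 for Setdb1 and 1.00 for the others). As for the labelled cell state, control arrays read 12.99 ± 0.34 (SD, n = 3) for the pluripotency gene Pou5f1 and 5.13 ± 0.27 (SD, n = 3) for Nanog. Of 10 pluripotent cell markers, 10 were above control in 3XHMT, and 6 above and 4 below in Cbx3. Median differences were 0.75 and 0.11. In each group 1 passed without a block, higher than control. At an unadjusted limma p under 0.05, 40% were higher in 3XHMT and 20% in Cbx3, against 2.62% and 4.77% of all genes. With the tier as a block 30% and 10% were called higher, against 0.577% and 2.25% of all genes. Of 9 measured fibroblast markers the median signal per array was 5.22 to 5.27 in control, 5.28 to 5.41 in 3XHMT and 5.30 to 5.68 in Cbx3, and of 9 macrophage and blood markers 4.49 to 4.75, 4.59 to 4.78 and 4.64 to 4.77. All of these lie below the array medians, where the size of a log2 difference is uncertain. Whether the signal there stood above background was not tested. No marker of these 2 lists passed in a comparison with control without a block. At an unadjusted limma p under 0.05, 1 fibroblast marker was higher and 1 lower in 3XHMT (11.1% each, against 2.62% and 2.59% of all genes). In Cbx3 1 fibroblast and 1 blood marker were higher at that level (11.1% of each list, against 4.77% of all genes). Between the knockdown groups the tier fit called 1 fibroblast marker higher and 2 lower in 3XHMT (11.1% and 22.2%, against 3.46% and 3.32% of all genes). Whether cells of these types were present, and their part in the results below, was not tested.

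**Figure D1:**
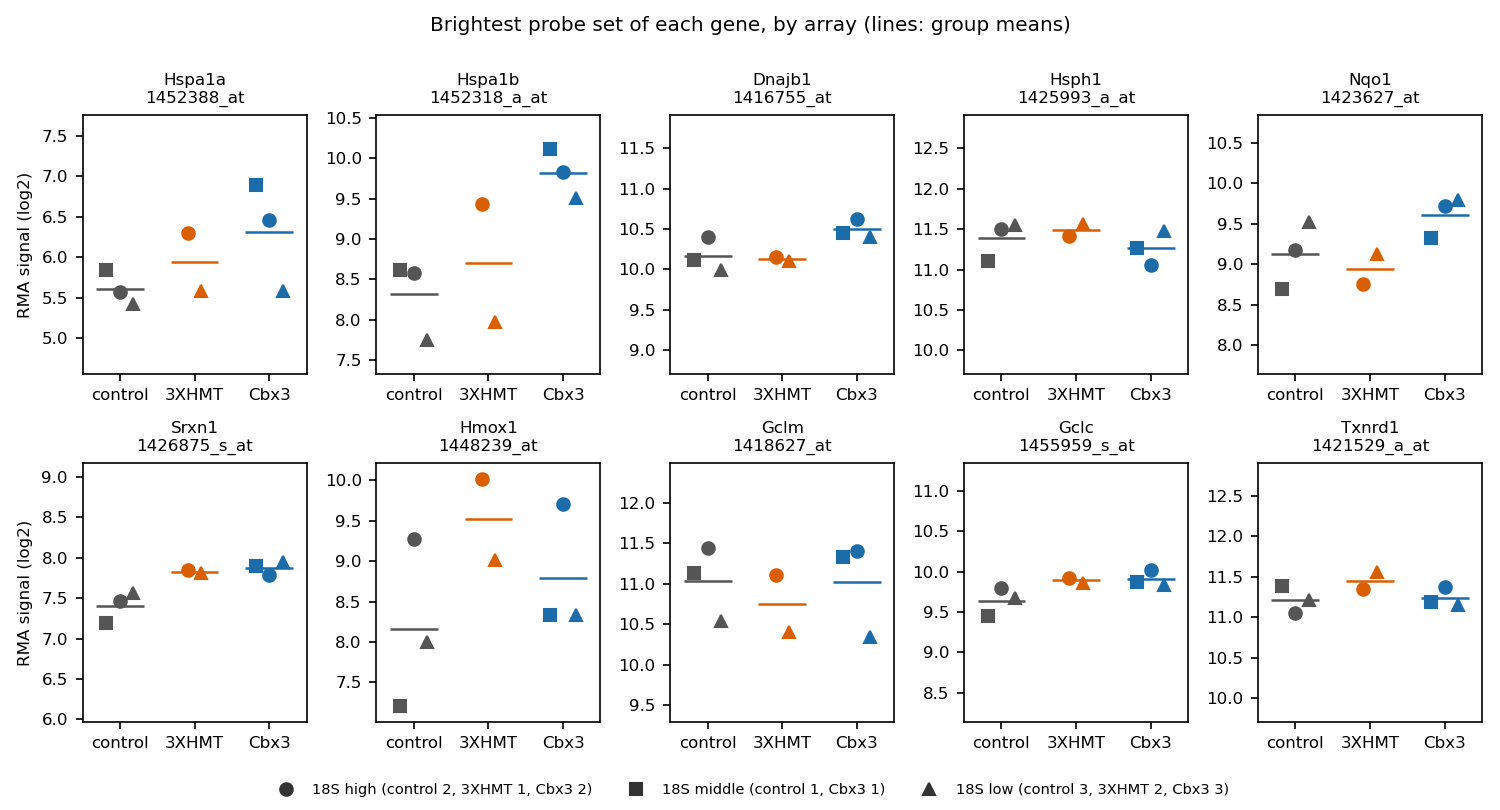
RMA signal (log2) of the brightest probe set of each of the 10 genes on each array, with group means as lines and the tier of 18S ribosomal RNA signal as the symbol. Each panel spans the same number of log2 units. All 3 Cbx3 arrays of Hspa1b, from 9.51 to 10.11, lie above the control and 3XHMT arrays, while the control arrays of Hmox1 spread from 7.21 to 9.28.

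Hspa1b was the member that stood highest above control in the Cbx3 arrays. Its brightest probe set, 1452318_a_at, read 8.61, 8.58 and 7.75 in control arrays 1, 2 and 3, 9.43 and 7.97 in 3XHMT arrays 1 and 2, and 10.11, 9.83 and 9.51 in Cbx3 arrays 1, 2 and 3 (log2 signal, as all levels below). Every Cbx3 array lay above every control and 3XHMT array, whereas 3XHMT array 1 lay above the control arrays and 3XHMT array 2 among them. The Cbx3 mean of 9.82 ± 0.30 (SD, n = 3) exceeded the control mean of 8.31 ± 0.49 (SD, n = 3) by 1.505 ± 0.39 (SE), a 2.84-fold difference. Without a block this missed the threshold (limma adjusted p over all probe sets = 0.284), and it passed with the tier as a block (adjusted p = 0.00389) and with control and Cbx3 arrays paired by replicate number (adjusted p = 0.00108). Same-numbered control and Cbx3 arrays also share a tier. The paired fit is thus the tier fit without the 3XHMT arrays, and gives no separate support. In RNA of a whole culture, a response of all cells and a stronger response of some cells cannot be told apart, nor can fewer cells of a type and less RNA per cell.

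The other Hspa1b probe sets ran the same way. Probe set 1427127_x_at read 7.50, 7.34 and 5.95 in control, 8.16 and 6.40 in 3XHMT, and 9.10, 8.71 and 7.97 in Cbx3. Again no Cbx3 array reached down to a control array, although control 3, in the low tier, lay far below the other control arrays. The difference of Cbx3 from control was 1.66 ± 0.56 (SE), 3.16-fold (adjusted p = 0.488, and 0.00203 with the tier as a block). Probe set 1427126_at read 7.22, 7.10 and 5.43 in control, 7.89 and 6.25 in 3XHMT, and 8.56, 8.48 and 7.10 in Cbx3. Here the groups overlapped: the Cbx3 array of the low tier was level with the control arrays of the other tiers. Its difference of 1.46 ± 0.63 (SE), 2.76-fold, had an adjusted p of 0.69 without a block and of 0.000584 with the tier as a block. The paired fit of control and Cbx3 arrays gave adjusted p of 0.00112 and 0.000876 for these 2 probe sets.

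Each Cbx3 array could be set against the control array of its own tier. The Hspa1b ratio was 2.83, 2.39 and 3.38 in Cbx3 arrays 1, 2 and 3 by 1452318_a_at, 3.02, 2.58 and 4.06 by 1427127_x_at, and 2.53, 2.60 and 3.19 by 1427126_at. All 9 ratios were above 1 and none was under 2.39. When the tier block was fitted with each of the 8 arrays left out in turn, all 3 probe sets stayed past the threshold under all 8 omissions, with adjusted p up to 0.0396. The 8 omissions are not 8 separate fits. The middle tier holds only control 1 and Cbx3 1, so leaving out either gives the same fit. For Cbx3 against control, leaving out either 3XHMT array gives the result of the paired fit. In the fit without a block none of the 3 probe sets passed under any omission.

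In the 3XHMT arrays the Hspa1b signal was also above that of the tier's control array, by smaller ratios. These were 1.81 and 1.16 by 1452318_a_at, 1.77 and 1.37 by 1427127_x_at, and 1.73 and 1.77 by 1427126_at for 3XHMT arrays 1 and 2. Group differences without a block lay between 0.35 and 0.49, each smaller than its SE of 0.43 to 0.71, with an adjusted p of 1.00. With the tier as a block, 1427126_at passed at 0.78 ± 0.13 (SE), 1.71-fold (adjusted p = 0.035), and the other 2 did not, at 0.53 and 0.62 (adjusted p = 0.445 and 0.322). That call failed in 5 of the 8 fits with an array removed (control 2 or 3, 3XHMT 1 or 2, or Cbx3 2), with adjusted p up to 0.233.

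Hspa1a, the companion copy, had a single probe set near the array median. It read 5.84, 5.57 and 5.42 in control, 6.30 and 5.58 in 3XHMT, and 6.89, 6.46 and 5.59 in Cbx3. Cbx3 arrays 1 and 2 lay above all control arrays, and Cbx3 array 3 lay among them. The difference of Cbx3 from control, 0.70 ± 0.33 (SE) or 1.63-fold, did not pass without a block (adjusted p = 0.755), in the fit that blocks on tier (adjusted p = 0.0565) or in the paired fit (adjusted p = 0.0604). The 3XHMT difference was 0.33 ± 0.37 (SE) without a block and 0.53 ± 0.19 (SE) with it (adjusted p = 1.00 and 0.387). Over the 8 arrays the Hspa1a signal correlated with the 3 Hspa1b probe sets by 0.827 to 0.888, and these with each other by 0.928 to 0.982. Those values describe arrays that share tiers, groups and possibly probes' targets.

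Dnajb1, the Hsp40 co-chaperone that hands clients to Hsp70, differed less. Probe set 1416755_at read 10.12, 10.40 and 9.996 in control, 10.15 and 10.10 in 3XHMT, and 10.45, 10.62 and 10.41 in Cbx3. All Cbx3 arrays lay above all others, the lowest of them barely above control 2. The difference of Cbx3 from control was 0.32 ± 0.13 (SE), 1.25-fold (adjusted p = 0.637, and 0.168 with the tier as a block). The 3XHMT difference was -0.05 ± 0.15 (SE). Probe set 1416756_at gave 0.30 ± 0.20 (SE) for Cbx3 and -0.12 ± 0.22 (SE) for 3XHMT, with overlapping groups.

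Hsph1, whose window holds the full element printed above, did not follow Hspa1b. Probe set 1425993_a_at read 11.11, 11.51 and 11.56 in control, 11.41 and 11.57 in 3XHMT, and 11.26, 11.05 and 11.47 in Cbx3. The groups overlapped throughout. The Cbx3 difference was -0.13 ± 0.16 (SE) with a 95% interval from -0.50 to 0.25, and the 3XHMT difference 0.10 ± 0.18 (SE) with an interval from -0.32 to 0.52. Probe set 1423566_a_at gave -0.06 and 0.08, with values of 9.57 to 10.003 on all 8 arrays. Over the arrays the signals of 1425993_a_at and of Hspa1b 1427126_at correlated by -0.707.

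**Figure D2:**
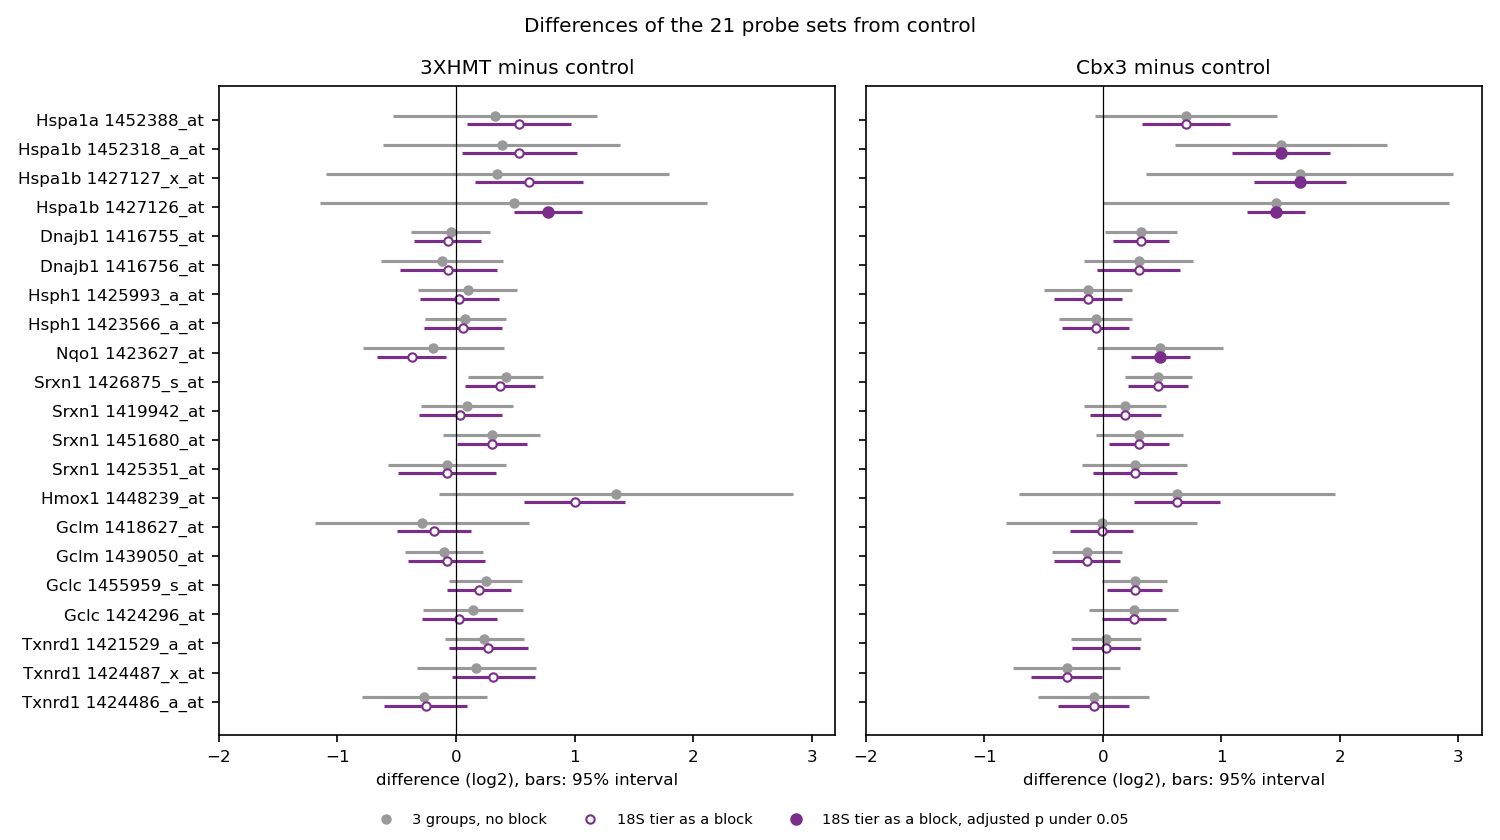
Difference from control (log2) of the 21 probe sets in 3XHMT and in Cbx3 arrays, with 95% intervals, without a block (grey) and with the tier of 18S signal as a block (purple, filled where the adjusted p is under 0.05). The filled points are Hspa1b 1427126_at in the 3XHMT panel, and the 3 Hspa1b probe sets and Nqo1 in the Cbx3 panel.

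Among the Nrf2 targets, Nqo1 differed in opposite directions. It encodes a quinone reductase and is widely used as a readout of Nrf2. Its only probe set, 1423627_at, read 8.69, 9.17 and 9.52 in control, 8.75 and 9.12 in 3XHMT, and 9.32, 9.73 and 9.80 in Cbx3. The control arrays were themselves 0.83 apart, so both knockdown groups overlapped control. Against the control array of the same tier, Cbx3 arrays 1, 2 and 3 were higher by 0.63, 0.55 and 0.28, and 3XHMT arrays 1 and 2 differed by -0.42 and -0.40. The Cbx3 difference of 0.49 ± 0.23 (SE), 1.40-fold, had an adjusted p of 0.755 without a block and of 0.0492 with the tier as a block. That call failed in all 8 fits with an array removed (adjusted p 0.052 to 0.283), and the paired fit gave 0.052. The 3XHMT difference was -0.19 ± 0.26 (SE) without a block and -0.37 ± 0.13 (SE) with it (adjusted p = 1.00 and 0.359).

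Srxn1 encodes sulfiredoxin, which repairs overoxidised peroxiredoxins. Probe set 1426875_s_at read 7.19, 7.47 and 7.57 in control, 7.84 and 7.81 in 3XHMT, and 7.89, 7.79 and 7.95 in Cbx3. All knockdown arrays lay above all control arrays. The differences were 0.42 ± 0.14 (SE) for 3XHMT, 1.34-fold, and 0.47 ± 0.12 (SE) for Cbx3, 1.38-fold. Neither passed over all probe sets (adjusted p = 0.892 and 0.291), nor did they in the fit that blocks on tier (adjusted p = 0.378 and 0.0617).

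The remaining 3 Srxn1 probe sets had lower signal and smaller differences. Probe sets 1451680_at and 1425351_at gave 0.31 and 0.27 for Cbx3, each with all Cbx3 arrays above all control arrays (adjusted p = 0.811 and 0.961). In 3XHMT they gave 0.30 and -0.08, with 3XHMT array 1 above and array 2 within or below the control arrays. Probe set 1419942_at gave 0.10 for 3XHMT and 0.19 for Cbx3, with overlapping groups. None of these passed with the tier as a block.

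Hmox1, the heme oxygenase that breaks heme down to biliverdin, iron and carbon monoxide, varied most among control arrays. It read 7.21, 9.28 and 7.999 in control, 10.01 and 9.02 in 3XHMT, and 8.34, 9.70 and 8.33 in Cbx3. The control arrays spanned 2.07, and both knockdown groups overlapped them. Within tiers each knockdown array exceeded its control array: 3XHMT arrays 1 and 2 by 0.73 and 1.02, and Cbx3 arrays 1, 2 and 3 by 1.13, 0.42 and 0.33. The 3XHMT difference was 1.35 ± 0.65 (SE), 2.55-fold, without a block (adjusted p = 1.00), and 1.00 ± 0.19 (SE), 2.00-fold, with the tier as a block (adjusted p = 0.0601). The Cbx3 difference was 0.63 ± 0.58 (SE), 1.55-fold (adjusted p = 1.00, and 0.0787 with the block). In the tier fit the 3XHMT difference passed in 2 of the 8 fits with an array removed, those without control 1 and without Cbx3 1. As these arrays alone make up the middle tier, the 2 fits are the same.

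Glutathione synthesis starts with glutamate-cysteine ligase, whose catalytic and modifier subunits are encoded by Gclc and Gclm. Gclc probe set 1455959_s_at read 9.46, 9.79 and 9.67 in control, 9.92 and 9.86 in 3XHMT, and 9.87, 10.02 and 9.83 in Cbx3. No knockdown array fell to the highest control array, yet the differences were small, 0.25 ± 0.13 (SE) for 3XHMT and 0.27 ± 0.12 (SE) for Cbx3 (adjusted p = 1.00 and 0.709). The other Gclc probe set, 1424296_at, gave 0.14 and 0.26 with overlapping groups. Gclm probe set 1418627_at read 11.13, 11.44 and 10.54 in control, 11.11 and 10.40 in 3XHMT, and 11.34, 11.41 and 10.34 in Cbx3. It followed the tiers rather than the groups: the 3 arrays of the low tier were the 3 lowest in it, and the differences from control were -0.28 ± 0.39 (SE) and -0.01 ± 0.35 (SE). Gclm probe set 1439050_at gave -0.10 and -0.13 and did not show that split, with control 3 the highest of the 8 arrays at 9.17.

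Txnrd1 encodes the cytosolic thioredoxin reductase, and its 3 probe sets disagreed. Probe set 1421529_a_at read 11.39, 11.05 and 11.21 in control, 11.34 and 11.56 in 3XHMT, and 11.19, 11.37 and 11.15 in Cbx3, with differences of 0.24 ± 0.14 (SE) and 0.03 ± 0.13 (SE). Probe set 1424487_x_at read 6.94, 6.72 and 6.73 in control, 6.94 and 6.99 in 3XHMT, and 6.91, 6.48 and 6.09 in Cbx3. Here the 3XHMT arrays lay at or just above the highest control array, and the Cbx3 arrays ran down to the lowest value of all. Its differences were 0.17 ± 0.22 (SE) for 3XHMT and -0.30 ± 0.20 (SE) for Cbx3, and against the control array of the tier both 3XHMT arrays were higher and all 3 Cbx3 arrays lower. Probe set 1424486_a_at gave -0.27 and -0.07. None of these passed in either fit.

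**Figure D3:**
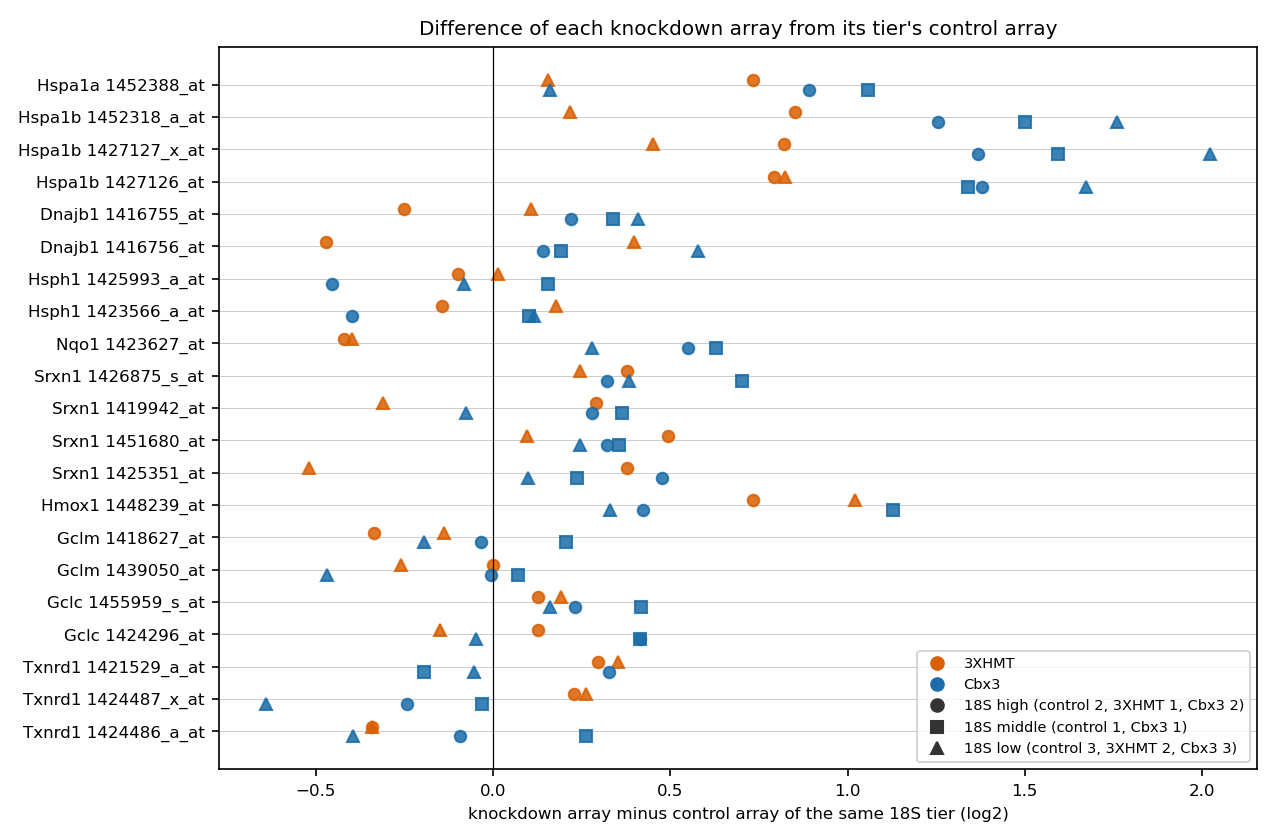
Each knockdown array minus the control array of the same 18S tier (log2) for the 21 probe sets, with colour for the siRNA group and symbol for the tier. The 9 Hspa1b points of the Cbx3 arrays lie between 1.26 and 2.02, and the 3XHMT points (-0.42 and -0.40) and Cbx3 points (0.28 to 0.63) of Nqo1 lie on opposite sides of 0, as do those of Txnrd1 1424487_x_at the other way round.

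Counted over the members, 0 of 21 probe sets passed in 3XHMT against control, where 0.0555% of all probe sets tested did, and 0 of 21 in Cbx3 against control, where 0.0777% did. At an unadjusted p under 0.05 in the same limma fit, 1 member (Srxn1 1426875_s_at) was higher in 3XHMT and 5 were higher in Cbx3 (the 3 of Hspa1b, Dnajb1 1416755_at and Srxn1 1426875_s_at), against 4.19% and 7.23% of all probe sets in either direction. No member was lower at that level in either. Groups did not overlap for 3 members in 3XHMT, all higher (Srxn1 1426875_s_at, Gclc 1455959_s_at and Txnrd1 1424487_x_at), against 8.54% of all probe sets higher and 6.81% lower. In Cbx3 they did not overlap for 7 members, all higher (2 of Hspa1b, 3 of Srxn1, Dnajb1 1416755_at and Gclc 1455959_s_at), against 6.11% higher and 5.84% lower. The 3XHMT share is near its background. The Cbx3 share of 7 in 21 is above its own, but some of the 7 are probe sets of the same gene. The members were also chosen with earlier results of these data known, so the excess is a description only.

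With the tier as a block, 1 member was called higher and 0 lower in 3XHMT, where 0.393% and 0.306% of all probe sets were. In Cbx3, 4 were called higher and 0 lower, where 1.45% and 1.99% of all probe sets were. The 4 are the 3 probe sets of Hspa1b and that of Nqo1, so they stand for 2 genes. The median difference of the 21 members was 0.14 in 3XHMT and 0.27 in Cbx3, beside 0.0024 and 0.0046 over all probe sets, and 14 and 15 of them were above 0. By class, the median was 0.22 and 0.51 for the 8 heat shock probe sets and 0.14 and 0.26 for the 13 of Nrf2 targets. The 0.51 in Cbx3 describes no rise of the whole class. Probe sets of the near-identical copies Hspa1a and Hspa1b gave 0.70 to 1.66, and those of Dnajb1 and Hsph1 -0.13 to 0.32. Probe sets of a gene share its transcript and are not independent counts. Both comparisons use the same 3 control arrays.

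Taken array by array against the control array of the tier, 19 of 21 members were higher in Cbx3 1, 15 in Cbx3 2 and 13 in Cbx3 3, with medians of 0.35, 0.32 and 0.16. In 3XHMT 1 and 3XHMT 2, 13 and 14 were higher, with medians of 0.23 and 0.15. The median over all probe sets was between -0.014 and 0.0044 on these arrays. Cbx3 1, the array with the most members higher, is set against control 1, which read lowest of the 8 arrays for Nqo1, Hmox1 and Srxn1 1426875_s_at.

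The direct comparison of the knockdown groups asks whether targeting the methyltransferases and targeting Cbx3 differed for these genes. The bright Cbx3 probe sets stood at 37.9% to 43.9% of control in Cbx3 arrays. Those brightest for Setdb1, Ehmt2 and Ehmt1 stood at 63.2% to 79.6% in 3XHMT arrays. Whether this unlike extent bears on the differences below was not tested. Without a block, 0 of 21 members passed, where 0.528% of all probe sets did. At an unadjusted p under 0.05, 3 were lower in 3XHMT (Hspa1b 1452318_a_at, Dnajb1 1416755_at and Nqo1), against 8.74% of all probe sets in either direction. Groups did not overlap for 4 members that were lower in 3XHMT (both Dnajb1 probe sets, Hspa1b 1452318_a_at and Nqo1) and for 1 that was higher (Txnrd1 1424487_x_at), against 11.5% and 11.8% of all probe sets. With the tier as a block 4 were lower and 0 higher, where 2.16% and 2.5% of all probe sets were.

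Nqo1 had the lowest p of the 21 in that tier fit. Its 3XHMT arrays read 8.75 and 9.12 and its Cbx3 arrays 9.32, 9.73 and 9.80, without overlap. The difference was -0.68 ± 0.26 (SE) without a block, 1.6-fold lower in 3XHMT (adjusted p = 0.477), and -0.86 ± 0.13 (SE) with it, 1.81-fold lower (adjusted p = 0.00684). The call in the tier fit held under 7 of the 8 omissions and not without 3XHMT 1 (adjusted p = 0.0603). The 3 Hspa1b probe sets differed by -0.97 ± 0.21, -1.04 ± 0.20 and -0.69 ± 0.13 (SE) in the tier fit (adjusted p = 0.0382, 0.0215 and 0.0176), which is 1.96-fold, 2.06-fold and 1.61-fold lower in 3XHMT. Those calls held under 2, 6 and 5 of the 8 omissions, with adjusted p up to 0.287, and leaving out 3XHMT 2 or Cbx3 3 ended each of them. None passed without a block (adjusted p of 0.486, 0.65 and 0.868). Hmox1 ran the other way by 0.73 ± 0.65 (SE), with a 95% interval from -0.77 to 2.22, and did not pass. For Srxn1 1426875_s_at the 95% interval of the difference was -0.36 to 0.27.

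**Figure D4:**
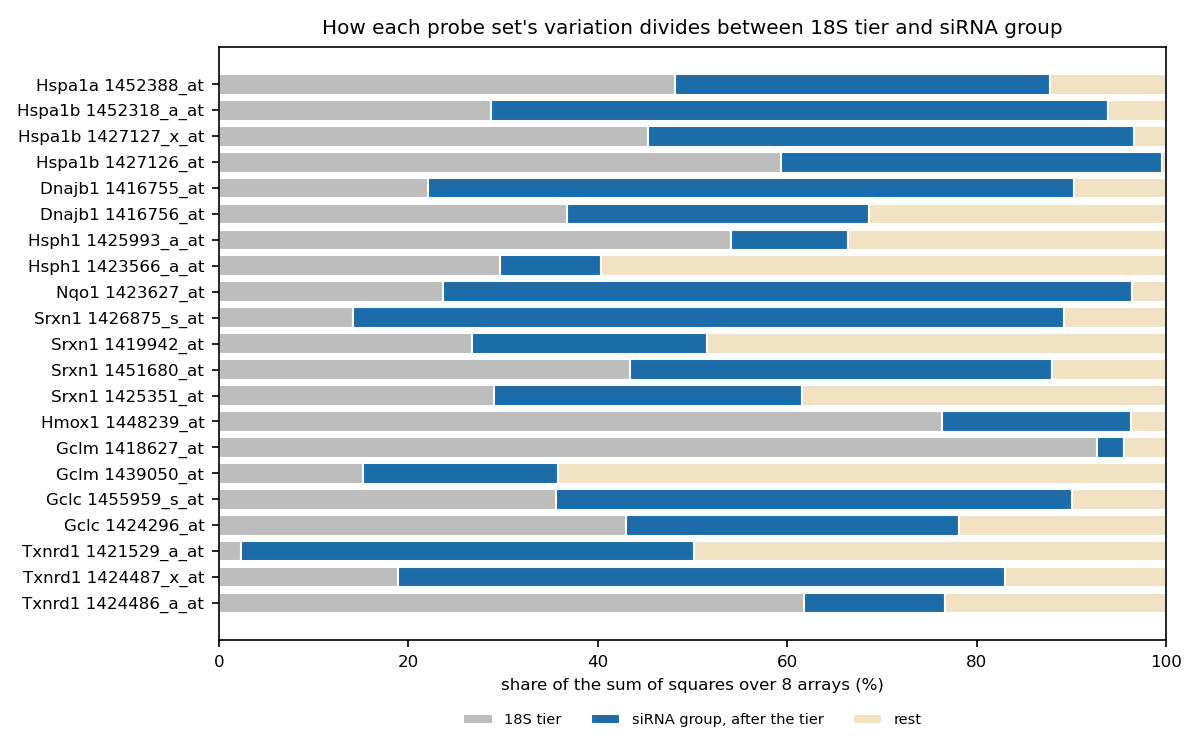
Share of each probe set's sum of squares over the 8 arrays (percent) taken by the 18S tier, by siRNA group after the tier, and by the rest. The tier takes 92.7% for Gclm 1418627_at and 76.4% for Hmox1, and the siRNA group 75.1% for Srxn1 1426875_s_at and 72.8% for Nqo1.

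How much of each member's variation ran with the tier differed between them. For Hspa1b 1427126_at the tier took 59.4% of the sum of squares over arrays and the siRNA group a further 40.1%, which left 0.47%. For 1427127_x_at the shares were 45.3% and 51.4%, and for 1452318_a_at 28.7% and 65.2%. Nqo1 and Srxn1 1426875_s_at varied mostly with the group after the tier was taken, at 72.8% and 75.1%. Hmox1 and Gclm 1418627_at varied mostly with the tier, at 76.4% and 92.7%. With 8 arrays, 3 tiers and 3 groups only 3 residual degrees of freedom remain, so these shares describe the 8 arrays alone.

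Over the 8 arrays, Gclm 1418627_at and Txnrd1 1424486_a_at correlated by 0.902, the Hsph1 probe sets by 0.889, the Dnajb1 probe sets by 0.868, and Hmox1 and Gclc 1455959_s_at by 0.848. Nqo1 and Txnrd1 1424487_x_at correlated by -0.807. The points of each correlation share tiers and groups, and the values are descriptive.

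Genes with a similar profile were listed as a description, among 2895 other genes that spanned at least 1 log2 unit. The mean profile of the heat shock members was matched best by Septin4 (Pearson r = 0.98 over 8 arrays), Cnp (0.96), Helz (0.95), Kcnk6 (0.94) and Gstm6 (0.94). That of the Nrf2 members was matched best by A930007A09Rik (0.99), Cybb (0.97), Ltb (0.96), Zfp423 (0.93) and Cyp26a1 (0.92). Gstm6, a glutathione S-transferase gene, is also 1 of the other Nrf2 targets below. With 8 points and so many candidates, high values occur by selection.

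The other genes of the pathways were followed by the brightest probe set of each, and their counts are set beside shares over all 18193 genes followed the same way. At an unadjusted limma p under 0.05, 2.62% of all genes were higher and 2.59% lower in 3XHMT than in control, and 4.77% and 4.73% in Cbx3. With the tier as a block the called shares were 0.577% and 0.456% in 3XHMT, 2.25% and 2.54% in Cbx3, and 3.46% higher and 3.32% lower in 3XHMT than in Cbx3. Hsf1 could not be followed, since the platform annotation pairs no probe set with it alone. The 4 measured heat shock regulators (Hsf2, Hsf4, Hsbp1 and Hikeshi) gave 0 calls by limma in any comparison or fit, and 0 at an unadjusted p under 0.05. Of 42 other heat shock and chaperone genes, 0 passed without a block in either comparison with control, with a median of 0.0071 in 3XHMT and -0.0004 in Cbx3, beside 0.0067 and 0.012 over all genes. At an unadjusted p under 0.05, 3 (7.14%) were lower in 3XHMT: Serpinh1, the collagen chaperone (-0.49 ± 0.16 SE), Dnaja4 (-0.34 ± 0.14) and the small heat shock gene Hspb2 (-0.77 ± 0.31). In Cbx3 1 was higher and 1 lower at that level (2.38% each, below the shares of all genes), Ahsa2 (0.59 ± 0.22) and Fkbp5 (-0.49 ± 0.18). With the tier as a block 1 rose and 1 fell in Cbx3, again 2.38% each and near the shares of all genes: Ahsa2, related to an activator of Hsp90, rose by 0.59 (adjusted p = 0.0187), and Hspa4l, a second Hsp110 gene, fell by 0.79 (adjusted p = 0.0098). Constitutive Hspa8, which encodes the Hsc70 of unstressed cells, read 13.84 to 14.22 on all arrays.

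Nfe2l2, which encodes Nrf2 itself, read 10.93, 10.95 and 10.97 in control, 11.03 and 10.90 in 3XHMT, and 11.03, 11.07 and 11.06 in Cbx3. Its differences were 0.02 ± 0.10 (SE) for 3XHMT and 0.11 ± 0.09 (SE) for Cbx3, with 95% intervals of -0.22 to 0.26 and -0.11 to 0.32. Keap1 differed by -0.22 ± 0.22 (SE) and 0.05 ± 0.20 (SE). Of 14 Nrf2 regulators 0 were called in either fit in any comparison, and 1 in each comparison with control was lower at an unadjusted limma p under 0.05. In 3XHMT it was Maff, which encodes a small Maf partner (-0.54 ± 0.20 SE, unadjusted p = 0.0276). In Cbx3 it was Nfe2l3, which encodes the related factor Nrf3 and read below the array medians in every sample (-0.54 ± 0.19 SE, unadjusted p = 0.023).

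Other Nrf2 targets moved in both directions, as far as the tier fit calls them. Of 43 measured, 0 passed without a block in either comparison with control, and 2 (4.65%) were higher and 5 (11.6%) lower in 3XHMT, and 8 (18.6%) higher and 4 (9.3%) lower in Cbx3, at an unadjusted p under 0.05. Slc7a11 encodes the cystine transporter that supplies glutathione synthesis. It read 7.58, 8.08 and 8.40 in control, 7.42 and 7.94 in 3XHMT, and 6.53, 5.95 and 5.92 in Cbx3. All Cbx3 arrays lay below all others, which is opposite to the direction of Hspa1b and Nqo1. The Cbx3 difference was -1.89 ± 0.26 (SE), 3.70-fold lower (adjusted p = 0.065 over all probe sets, 0.0315 over 18193 genes at 1 probe set each, and 0.00422 with the tier as a block). In 3XHMT it was -0.34 ± 0.29 (SE) and did not pass.

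In the Cbx3 tier fit 3 of the 43 rose and 3 fell, Slc7a11 included, which is 6.98% each way. Gstm6, Gpx2 and Gsta2, enzymes that conjugate glutathione or use it to reduce peroxides, rose by 1.08, 1.08 and 1.11 (adjusted p = 0.00142, 0.00461 and 0.00475). Idh1, the cytosolic NADP-dependent isocitrate dehydrogenase, and Pir fell by 0.72 and 0.67 (adjusted p = 0.0167 and 0.0107). In the 3XHMT tier fit 0 rose and 3 (6.98%) fell: Mgst1 and Mgst2, microsomal glutathione S-transferases, and Gsta2. Mgst1 fell by 0.90 in it (adjusted p = 0.0321). Gsta2 was dim, at 4.11, 5.34 and 4.25 in control, 3.98 and 3.63 in 3XHMT, and 5.19, 6.35 and 5.48 in Cbx3. All control and 3XHMT values and 2 of the 3 Cbx3 values lie below the array medians, where the size of a log2 difference is uncertain, and whether the signal there stood above background was not tested (adjusted p = 0.0379 in 3XHMT). Mgst2 read 8.09, 8.24 and 8.40 in control, 6.87 and 6.46 in 3XHMT, and 7.96, 7.97 and 7.19 in Cbx3, a difference of -1.58 for 3XHMT (adjusted p = 0.142, and 0.0192 with the block). Between the knockdown groups Aox1, an aldehyde oxidase gene, passed without a block and was lower in 3XHMT by 1.11, at 6.73 and 6.53 against 7.88, 7.54 and 7.78 in Cbx3 (adjusted p = 0.0242). With the block 2 of the 43 (4.65%) were higher and 8 (18.6%) lower in 3XHMT than in Cbx3.

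Antioxidant genes outside the Nrf2 list were 30. None passed in limma without a block against control, while at an unadjusted p under 0.05 there were 2 higher and 2 lower in 3XHMT (6.67% each) and 1 higher (3.33%) and 5 lower (16.7%) in Cbx3. In each tier fit 1 rose and 1 fell (3.33% each, which in Cbx3 is near the shares of all genes). In 3XHMT, Msrb2, a mitochondrial methionine sulfoxide reductase gene, rose by 1.15 in it (adjusted p = 0.0125, and 0.117 without a block), from 8.23 ± 0.13 (SD, n = 3) to 9.35 ± 0.02 (SD, n = 2). Oxr1, an oxidation resistance gene, fell in it (adjusted p = 0.0146), with a difference of -0.90 without a block (adjusted p = 0.0978), at 10.47 and 10.62 against 11.27 to 11.59 in control. In Cbx3, Gpx8, a peroxidase gene of the endoplasmic reticulum, rose by 0.64 (adjusted p = 0.0235) and Sesn1, a sestrin gene, fell by 0.73 (adjusted p = 0.0321). Between the knockdown groups Msrb2 was higher in 3XHMT by 1.07 and Gpx8 and Oxr1 were lower by 1.06 and 0.86 without a block (adjusted p = 0.0486, 0.0346 and 0.0413). Txnip, which binds and inhibits thioredoxin, differed from control by -0.14 ± 0.29 (SE) and -0.07 ± 0.26 (SE).

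**Figure D5:**
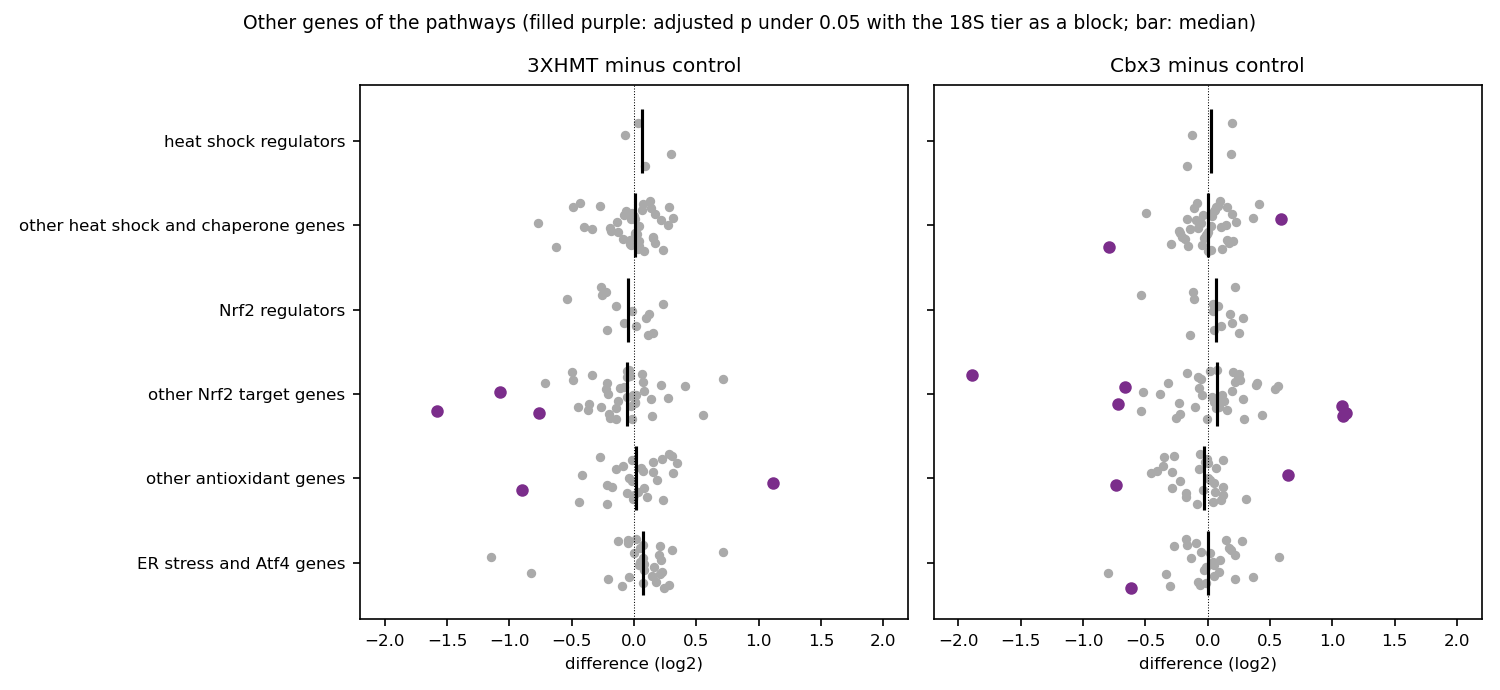
Difference from control (log2, without a block) of the other genes of 6 lists, each point 1 gene at its brightest probe set and the bar the list's median, in 3XHMT and Cbx3 arrays. Medians lie close to 0 in every list, and the purple points are genes that pass with the tier as a block, among them Slc7a11 at -1.89 and Gstm6, Gpx2 and Gsta2 near 1.1 in Cbx3.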

How the data were processed

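Values are deposited on the log2 scale, 1 per probe set and array (45101 probe sets, 8 Affymetrix arrays). Per the submitters' processing notes the authors used RMA, a method that subtracts background, gives all arrays a common distribution and combines the probes of a set. A shift common to most genes of an array is thereby lost. Settings of RMA: not given in the sources used here. Precision is limited by how many arrays there are, and differences are compressed where signal is near background.

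Gene names are those of the platform annotation, which gives 1 symbol to 34945 probe sets and several to 932, and leaves 9160 unnamed here. The 64 control probe sets entered no test. The 45037 others entered 1 fit of 3 groups on all 8 arrays with lmFit and eBayes of limma 3.58.1 (R 4.3.3, two-sided tests, 5 residual degrees of freedom). P-values were adjusted over all of them by Benjamini-Hochberg, and a probe set was changed at an adjusted p under 0.05. Every adjusted p comes from limma. The tier of 18S ribosomal RNA signal, cut at the 2 widest gaps, was added as a block in an alternative with 3 residual degrees of freedom. The middle tier holds only control 1 and Cbx3 1, so leaving out either array gives the same tier fit. Replicate numbers come from the labels. Same-numbered control and Cbx3 arrays deviated from their group means together (correlations of 0.51, 0.62 and 0.74), so they were treated as pairs, and a fit of these 6 arrays with the number as a block was added after the data were seen. In these 6 arrays the number and the tier mark the same pairs. Numbers did not pair the 3XHMT arrays with control (0.048 and -0.66). The deviations of 3XHMT 1 and 3XHMT 2 are mirror images, so the -0.66 is the 0.66 of control 2 with 3XHMT 1, its sign turned. The fit without a block was tested on simulated data of independent noise with no tiers. The fits with a block were not tested in this way.

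The members, the wider lists (9 lists with 206 genes) and the tests were chosen with earlier results of these data known. All members were named, with the siRNA targets, Hsf1, Nfe2l2, Keap1, Slc7a11 and Txnip, up to 4 genes of a list that passed without a block, or the 2 with the lowest p where none did, and the 5 genes most like each mean profile. Other list genes were picked once their values were known, so that a small count could be spelled out. Wider lists used the brightest probe set of each gene (18193 genes). Promoter windows are from RefSeq.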

Additional observations from a re-analysis of the deposited data

Results flagged for a closer look

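Effects of the 2 knockdowns on 4 member probe sets differed from each other by a test of the difference itself, the contrast of 3XHMT with Cbx3 in the limma fit that takes the 18S tier as a block. For Nqo1 1423627_at this difference was -0.86 ± 0.13 (SE, adjusted p = 0.00684), since both 3XHMT arrays were below and all 3 Cbx3 arrays above the control array of their tier. For Hspa1b it was -0.69 ± 0.13 (adjusted p = 0.0176) by 1427126_at, -1.04 ± 0.20 (adjusted p = 0.0215) by 1427127_x_at and -0.97 ± 0.21 (adjusted p = 0.0382) by 1452318_a_at. In Hspa1b both groups were above the control array of their tier on all 5 knockdown arrays, and the Cbx3 arrays more so. None of the 4 passed in the fit without a block, and the 3XHMT group has 2 arrays. Target RNA stood at a higher share of control in 3XHMT than in Cbx3 arrays, and whether that bears on these differences was not tested. With each of the 8 arrays left out of the tier fit in turn, the Nqo1 call was lost in 1 fit, without 3XHMT 1 (adjusted p = 0.0603). The Hspa1b calls were lost in 3, 2 and 6 of the 8 fits in the order given, each of them without 3XHMT 2 and without Cbx3 3, with adjusted p up to 0.139, 0.196 and 0.287.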

How the results depend on the processing

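Without a block, no member probe set passed in any of the 3 comparisons, and that count stayed 0 under all alternatives but 2. With the 18S tier as a block it was 1 in 3XHMT against control, 4 in Cbx3 against control and 4 in 3XHMT against Cbx3. Pairing control and Cbx3 arrays by replicate number, a fit added after the data were seen, called 3 members, all Hspa1b. These pairs are the same as the tiers of those arrays, so the pairing is no check apart from the tier block. A replicate block over all 8 arrays, whose numbers do not pair the 3XHMT arrays, called none and turned the sign of 3 small differences: Hspa1b 1427126_at (-0.039) and 1427127_x_at (-0.053) in 3XHMT against control and Srxn1 1426875_s_at (0.0096) in 3XHMT against Cbx3. Cyclic loess turned Gclm 1418627_at in Cbx3 against control (0.011). Of 495 member differences under the settings that keep all arrays of the groups compared, 479 kept direction and call, 12 gained a call, 4 turned and 0 lost one.

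Over all probe sets 25 were called in 3XHMT and 35 in Cbx3 against control, and 238 between the knockdowns. These counts became 67, 153 and 433 with the replicate block, 315, 1547 and 2099 with the tier block, and 3, 14 and 80 with only the 2 groups compared. Control and Cbx3 arrays paired by number gave 1776 for Cbx3. The first count was 11 without dim probe sets and 42 with a trend in eBayes. At the brightest probe set of each gene the first 2 were 42 and 81, and at the second brightest the Cbx3 count was 57. Leaving out 1 array gave 1 to 23 (1 without control 1), 0 to 14 (0 without any 1 of the control arrays, Cbx3 2 or Cbx3 3) and 6 to 186 (6 without 3XHMT 1). In the tier fit with 1 array left out, member counts ran from 0 to 2 for 3XHMT (0 without control 2, control 3, 3XHMT 1, 3XHMT 2 or Cbx3 2, and 2 without control 1 or Cbx3 1), from 3 to 4 for Cbx3, and from 1 to 4 between the knockdowns (1 without 3XHMT 2 or Cbx3 3, and 2 without 3XHMT 1).

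No member lost or gained a call without a block when 1 array was left out, but 35 of 504 differences turned. In 3XHMT against control the ranges were -0.334 to 1.31, -0.534 to 1.23 and -0.342 to 1.11 for Hspa1b 1427126_at, 1427127_x_at and 1452318_a_at, -0.0317 to 0.693 for Hspa1a, -0.132 to 0.0695 and -0.347 to 0.0304 for Dnajb1 1416755_at and 1416756_at, -0.0417 to 0.182 and -0.0123 to 0.172 for Hsph1 1425993_a_at and 1423566_a_at, -0.409 to 0.00478 for Nqo1, -0.108 to 0.299 and -0.468 to 0.316 for Srxn1 1419942_at and 1425351_at, -0.637 to 0.0688 for Gclm 1418627_at, and -0.0115 to 0.286 for Gclc 1424296_at. In Cbx3 against control they were -0.257 to 0.335 for Gclm 1418627_at, -0.0567 to 0.114 and -0.189 to 0.132 for Txnrd1 1421529_a_at and 1424486_a_at, and -0.144 to 0.0426 for Hsph1 1423566_a_at. Between the knockdowns they were -0.629 to 0.0766 and -0.0826 to 0.106 for Gclm 1418627_at and 1439050_at, -0.297 to 0.11, -0.739 to 0.045 and -0.293 to 0.281 for Srxn1 1419942_at, 1425351_at and 1451680_at, and -0.0577 to 0.0391 for Gclc 1455959_s_at. The cause of these turns was not tested. Precision is limited by 8 arrays, and Hspa1a and the dimmer Srxn1 and Txnrd1 probe sets lie near the array median.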

Other observations

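Genes of the unfolded protein response of the endoplasmic reticulum and of the Atf4 pathway, a further branch of the stress response, were followed as 30 genes. Without a block 0 were called in any of the 3 comparisons by limma, and at an unadjusted p under 0.05 the counts were 0 higher and 0 lower in 3XHMT, 1 higher (Ppp1r15a) and 3 lower (Asns, Vldlr and Herpud1) in Cbx3. Over all genes these shares were 2.62% and 2.59% in 3XHMT and 4.77% and 4.73% in Cbx3, and in the list 3.33% and 10% in Cbx3. Asns, which encodes asparagine synthetase and is a known Atf4 target, read 11.05, 10.92 and 11.52 in control, 11.27 and 11.54 in 3XHMT, and 10.44, 10.33 and 10.87 in Cbx3. All Cbx3 arrays lay below all others. The Cbx3 difference was -0.61 ± 0.20 (SE, adjusted p = 0.471), and with the 18S tier as a block Asns was the 1 gene of the list called lower (adjusted p = 0.017) and 0 were called higher.

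Atf3, a stress-induced transcription factor gene, read 8.11, 9.39 and 6.65 in control, 6.93 and 6.88 in 3XHMT, and 8.67, 9.44 and 7.76 in Cbx3. All 3XHMT arrays lay within the range of the control arrays, as did 2 of the 3 Cbx3 arrays, with Cbx3 2 just above it, and differences of -1.15 ± 0.74 (SE) and 0.57 ± 0.66 (SE) did not pass (adjusted p = 1.00 for both). Atf4 itself differed by 0.14 ± 0.26 (SE) and 0.046 ± 0.23 (SE), and Ddit3 by -0.045 ± 0.12 (SE) and 0.14 ± 0.11 (SE). Median differences of the list were 0.073 in 3XHMT and 6.6e-05 in Cbx3.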
